A study of Mus musculus with 4 samples.

Results

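The C1q-high spots of mouse kidney sections were studied, and their gene content was compared between normal and ischemic kidneys. They were selected on the share of 3 transcripts, C1qa, C1qb and C1qc, in all the RNA molecules of a spot, and the 5% of spots with the highest share were taken within each section. Of 9951 spots with at least 2000 unique molecular identifiers (UMIs, each marking 1 captured RNA molecule), 497 were C1q-high, which were 128 of 2568 and 127 of 2532 spots for normal sections 1 and 2, and 117 of 2343 and 125 of 2508 spots for ischemic sections 1 and 2. The assay was 10x Visium, in which a tissue section lies on an array of barcoded capture spots, so a spot holds several cells or parts of cells and is not a single macrophage.

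All 4 sections came from left kidneys of male wild-type C57BL/6J mice of 7 to 8 weeks, and were cut at 10 µm. The ischemic mice had 30 min of bilateral renal ischemia and 24 h of reperfusion, and the normal mice are labelled as normal controls, so that the comparison asks what surrounds and marks C1q-rich tissue 1 day after an ischemic insult. The labels do not give the mouse of a section, and the study's methods describe technical replicates, so the spread between sections may be technical. The error behind each p-value below is drawn in part from other genes, not only from a gene's own sections. A p-value can therefore be small for a gene whose sections lie far apart. All 4 capture areas were on the same slide. Sections held from 25957128 to 44528078 UMIs. Between 1833 and 2137 spot barcodes were shared by any pair of sections, since each array carries the same barcode layout.

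C1q is the recognition molecule of the classical complement pathway. Its A, B and C chains are made mainly by macrophages and, to a lesser degree, by dendritic cells, and in tissue they serve as markers of resident macrophages, which clear dying cells and debris. In the kidney such macrophages lie between the tubules and along vessels, and after ischemia monocytes and neutrophils enter from the blood. The 3 genes lie side by side on the minus strand of mouse chromosome 4 (GRCm38), C1qb at chr4:136880129-136886187, C1qc at chr4:136889804-136893065 and C1qa at chr4:136895917-136898803, all protein coding, within 18.7 kb.

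The bases upstream of the annotated start are shown for C1qb and C1qc, which entered the selection, and for Lyz2 (lysozyme 2, an antibacterial enzyme of macrophages and neutrophils), the lineage gene outside the selection that is described first below. Each is the part of the 250 bases before the RefSeq start (GRCm38.p6, minus strand, 5′ to 3′) that also lies before the start of the GENCODE gene model, which leaves 250, 99 and 201 bases. Capitals mark matches of GGAAGT on either strand, a core bound by ETS factors such as PU.1, the product of Spi1, and the motif was chosen after the sequences were seen.
C1qb, chr4:136886201-136886450: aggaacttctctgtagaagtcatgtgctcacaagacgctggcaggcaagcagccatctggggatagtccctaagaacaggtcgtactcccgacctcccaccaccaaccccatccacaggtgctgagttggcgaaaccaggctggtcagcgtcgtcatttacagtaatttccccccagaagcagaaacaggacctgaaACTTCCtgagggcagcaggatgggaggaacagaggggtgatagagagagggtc
C1qc, chr4:136893066-136893164: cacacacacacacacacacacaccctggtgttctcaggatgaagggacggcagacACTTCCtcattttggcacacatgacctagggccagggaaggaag
Lyz2, chr10:117282322-117282522: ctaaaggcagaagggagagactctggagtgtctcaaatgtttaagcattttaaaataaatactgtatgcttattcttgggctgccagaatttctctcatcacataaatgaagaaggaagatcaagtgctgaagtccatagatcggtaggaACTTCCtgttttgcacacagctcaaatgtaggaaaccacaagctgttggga
Each window held 1 match, which began 53, 195 and 100 bases before the RefSeq start. Over 32851 RefSeq promoters, 19.7% held the motif in the 250 bases before the start, and a match is a description of the letters, not a bound site.

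The C1q values that chose the spots are given first, as a description without a test. The lowest C1q share inside the selection was 459 and 704 CPM (counts per 1000000 UMIs) for normal sections 1 and 2, against 482 and 496 CPM for ischemic sections 1 and 2, and the highest share just outside it was 456 and 701 (normal) and 480.4 and 495 (ischemic). Pooled over the C1q-high spots, the share was 817 and 1176 CPM in the normal and 631 and 701 in the ischemic sections. In the other spots it was 81.7 and 119.6 in the normal and 95.6 and 91.8 in the ischemic sections. The selected spots of normal kidneys thus carried more C1q, with single spots reaching 5215 and 5740 CPM, against 1118 and 1654 in ischemic kidneys.

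Few molecules stood behind each spot. The median C1q-high spot held 7 and 8 C1q counts in the normal and 5 and 5 in the ischemic sections, the lowest held 2 in every section, and 34.7 and 40.4% of all kept spots in the normal and 37.1 and 46.1% in the ischemic sections held none. The C1q-high spots were also shallower, with medians of 9550 and 6514 UMIs in the normal and 8073 and 7292 in the ischemic sections, against 16861 and 9216 (normal) and 12323 and 9298 (ischemic) in the other spots. When each spot was first thinned to 2000 UMIs, the top 5% shared 43.8 and 51.2% of its spots with the selection in the normal and 30.8 and 44.8% in the ischemic sections.

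The strength of the selection was read on molecules it had not used by choosing the top 5% on C1qa alone. C1qb and C1qc together then stood 6.85 and 6.60 times higher in the chosen than in the other spots of normal sections 1 and 2, and 2.95 and 3.47 times higher in ischemic sections 1 and 2. The groups did not overlap, and this reading was lower in both ischemic sections. This difference was not tested. How far the gene enrichments below depend on this reading was not tested.

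**Figure D1:**
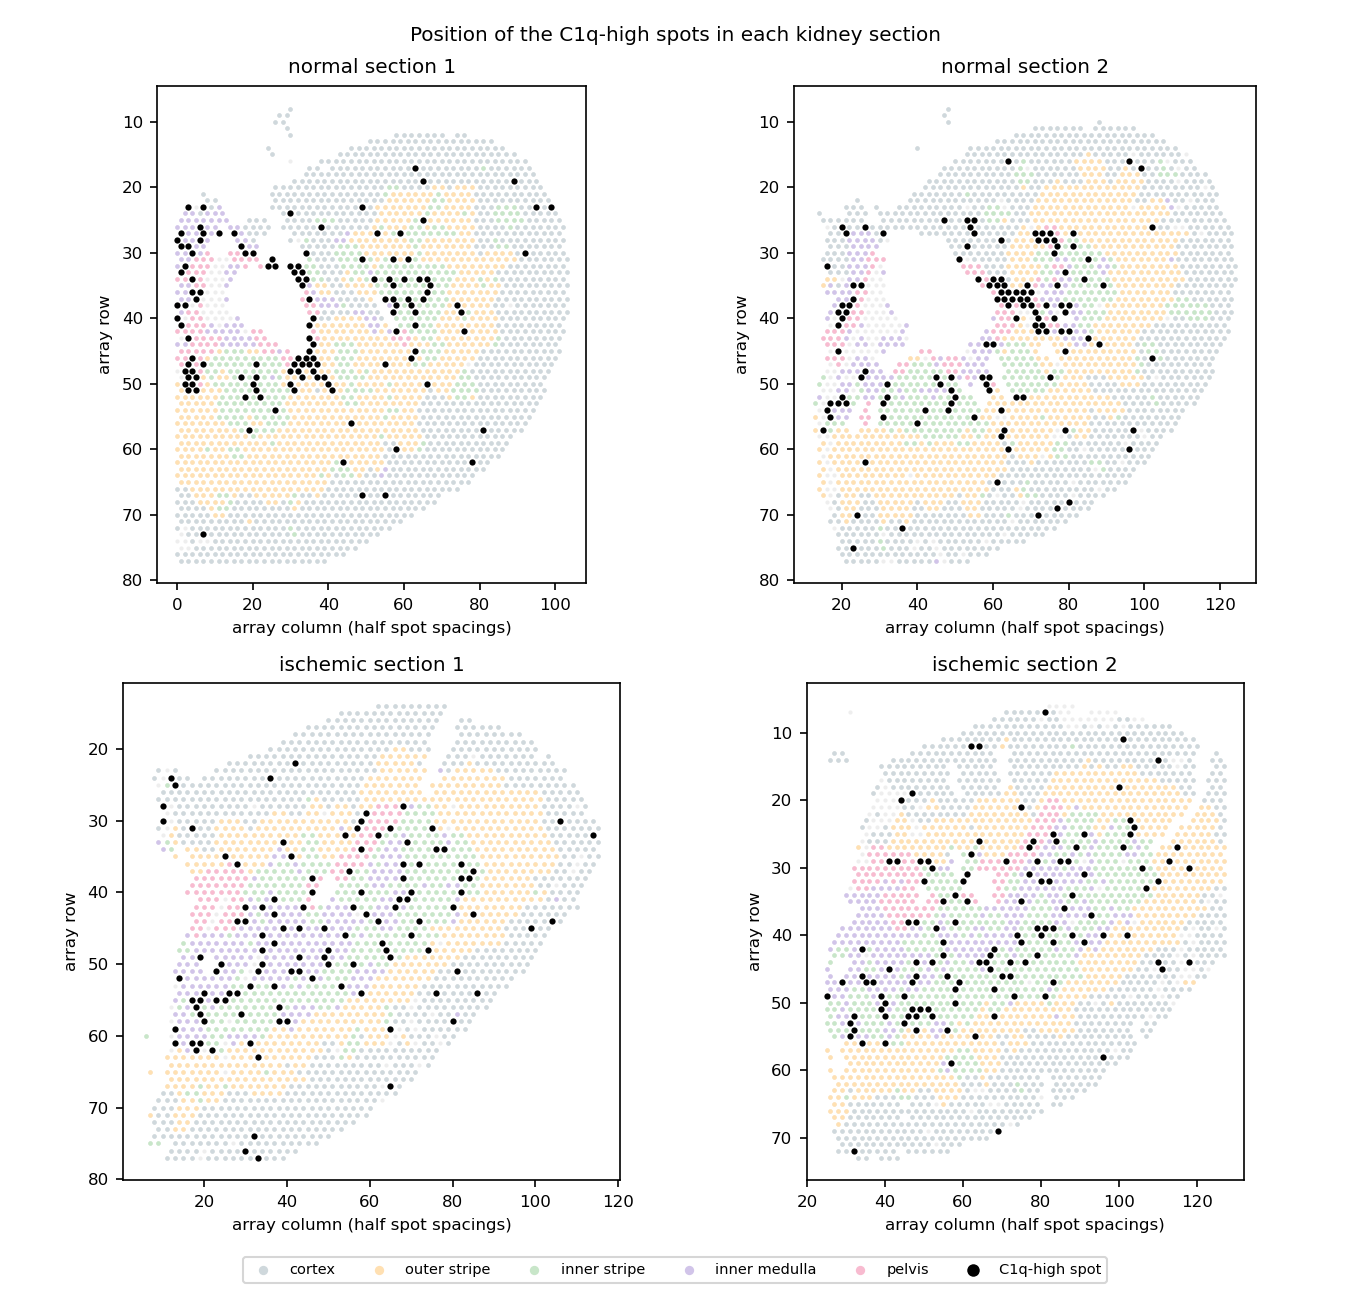
Map of the C1q-high spots (black) in the 4 sections, by array column and row, over the zone given to each kept spot (colours); pale grey spots held under 2000 UMIs. In normal sections 25.5 and 26.8% of the neighbours of a C1q-high spot were C1q-high themselves, against 9.12 and 11.4% in ischemic sections.

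Larger shares of the C1q-high spots lay beside each other, near the tissue edge and in the pelvis zone in normal than in ischemic kidneys. In ischemic kidneys larger shares lay in the inner stripe and inner medulla. Those with no C1q-high neighbour made up 34.4 and 37.8% in the normal and 63.2 and 52.8% in the ischemic sections. The share of the kept neighbours of a C1q-high spot that were C1q-high themselves was 25.5 and 26.8% in the normal and 9.12 and 11.4% in the ischemic sections, and around the other spots it was between 3.63% and 4.79% in all 4 sections. C1q-high spots with at least 3 C1q-high neighbours numbered 23 and 32 in the normal and 2 and 6 in the ischemic sections. Spots at the tissue edge or 1 step from it made up 43.8 and 36.2% of the C1q-high spots in the normal and 16.2 and 11.2% in the ischemic sections, against 20.7 and 25.5% (normal) and 21.2 and 26.4% (ischemic) of the other spots. The edge share was therefore above that of the other spots in both normal sections and below it in both ischemic sections.

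Zones were assigned from tubule and urothelium markers, and each zone is a region named by those genes. The pelvis zone held 26.6 and 28.3% of the C1q-high spots in the normal and 8.55 and 7.20% in the ischemic sections. The inner stripe of the outer medulla held 28.1 and 17.3% in the normal and 32.5 and 45.6% in the ischemic sections. The inner medulla held 15.6 and 20.5% in the normal and 35.9 and 24% in the ischemic sections. The other spots of the inner medulla also made up 4.06 and 6.53% (normal) and 11.8 and 12.3% (ischemic) of all other spots, so that of its kept spots 16.8 and 14.2% (normal) and 13.8 and 9.26% (ischemic) were C1q-high. Of the spots of the inner stripe 9.81 and 6.88% (normal) and 9.95 and 11.4% (ischemic) were C1q-high, and of those of the pelvis 29.6 and 28.8% (normal) and 9.90 and 7.09% (ischemic). Read per spot of the zone, the C1q-high share was thus lower in both ischemic sections for the inner medulla and the pelvis. Marker scores were scaled within each section, so a zone need not cover the same tissue in both conditions. The inner medulla zone held 119 and 183 kept spots in the normal and 304 and 324 in the ischemic sections. The cortex, with 47.2 and 45.1% of the other spots in the normal and 40.7 and 36.0% in the ischemic sections, held only 11.7 and 22.0% (normal) and 16.2 and 10.4% (ischemic) of the C1q-high ones, and the outer stripe held 17.97 and 11.8% (normal) and 6.84 and 12.8% (ischemic). The pelvis zone of the ischemic sections is uncertain, because the uroplakin gene Upk1a, which makes a membrane protein of the urothelium, stood at only 1.68 and 2.58 CPM in their other spots, against 37.0 and 82.2 CPM in normal sections.

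**Figure D2:**
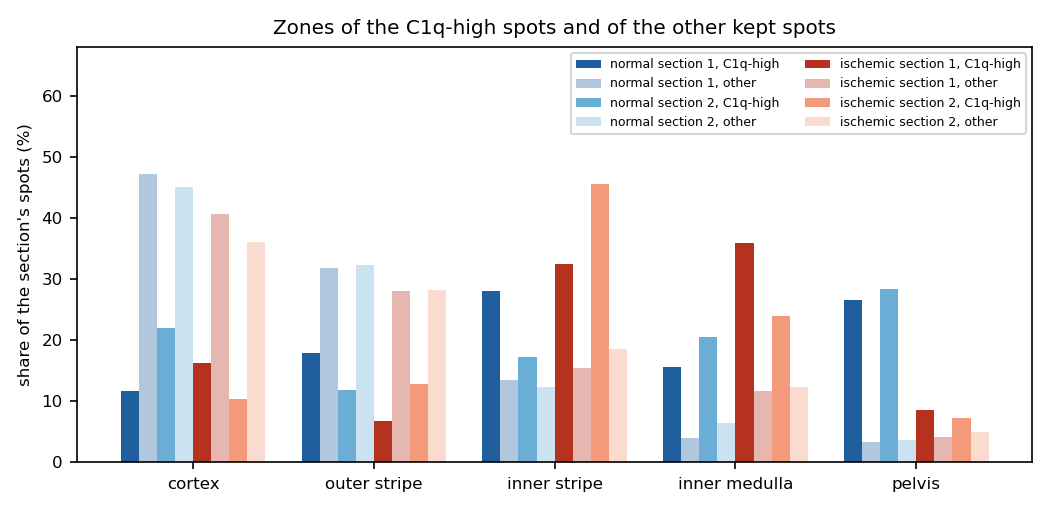
Share of the C1q-high spots (full colour) and of the other kept spots (pale) in each zone, in percent of the section's spots of that kind, 1 bar per section. The pelvis holds 26.6 and 28.3% of the C1q-high spots in the normal and 8.55 and 7.20% in the ischemic sections.

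Gene content was compared by summing counts over the C1q-high and over the other spots of each section, and the log2 ratio of the 2 sums, scaled by edgeR's TMM method, is called the enrichment. Over 15475 genes, 2336 (15.1%) were at least 1.5-fold higher in C1q-high spots of both normal sections and 2174 (14.0%) at least 1.5-fold lower. In ischemic sections 1096 (7.08%) were higher and 1783 (11.5%) lower. These counts describe the selected contrast and carry no test. The change of enrichment, ischemic minus normal, was tested with edgeR's quasi-likelihood test (Benjamini-Hochberg adjusted p under 0.05): 301 genes (1.95%) rose and 646 (4.17%) fell, and 2575 passed an unadjusted p under 0.05. Scaling by library size alone moved the median change of all genes by -0.20 and gave 94 rises and 1040 falls, so changes are read against a median of -0.02 under TMM. With that scaling none of the 76 named genes called turned direction, but the rises of Csf1r, Rsad2, Emcn, Lamp2 and Olfm4, described below, lost the call (0.54, 0.80, 0.41, 0.35 and 1.19). DESeq2 gave 57 rises and 258 falls, and the counts were 46 and 389 without ischemic section 1, 52 and 399 without ischemic section 2, and 11 and 115 when the sums of a section were not tied to each other.

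Genes of the macrophage lineage outside the selection checked the name of the spots. Of 16 such genes, 12 stood at least 1.5-fold higher in C1q-high spots of both normal sections and 11 in both ischemic sections, and their median enrichment was 2.16 in the normal and 1.28 in the ischemic sections, beside -0.03 over all genes in each. The C1q genes themselves went from 3.02 to 2.55 for C1qa, from 2.84 to 2.54 for C1qb and stayed at 2.63 (normal) and 2.63 (ischemic) for C1qc. Between conditions 4 of the 16 lineage genes fell and 1 rose. Over all 15475 genes 4.17% fell and 1.95% rose, and each list count below is to be read beside those shares.

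Lyz2 fell most among them by its error. Its level in C1q-high spots was 443 and 499 CPM in the normal and 144 and 231 CPM in the ischemic sections, and in the other spots 46.6 and 58.4 (normal) and 78.6 and 67.5 CPM (ischemic). The enrichment was 3.25 and 3.09 in the normal and 0.87 and 1.77 in the ischemic sections, a change of -1.83 ± 0.15 on the log2 scale (SE, 2 sections per condition, edgeR adjusted p = 9.97e-20). Both ischemic sections lay below both normal ones, since the level was lower in the selected spots and higher elsewhere. The ischemic sections lay apart (0.87 and 1.77), and the SE, drawn in part from other genes, is small beside that gap.

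Spi1, which encodes PU.1, the transcription factor that specifies myeloid cells, stood at 28.1 and 47.6 CPM in C1q-high spots of normal and 19.4 and 9.17 CPM of ischemic sections, with 4.98 and 7.26 (normal) and 7.41 and 7.38 CPM (ischemic) in the other spots. Its enrichment changed by -1.65 ± 0.35 (edgeR adjusted p = 3.85e-04). Cd68, a lysosomal protein of phagocytes, rose in level in both kinds of spot, from 17.5 and 16.4 to 38.0 and 44.0 CPM in C1q-high spots and from 4.24 and 5.03 to 23.4 and 23.9 CPM elsewhere, and its enrichment changed by -1.09 ± 0.32. Cd14, the lipopolysaccharide co-receptor, also rose in level, and its enrichment changed by -1.12 ± 0.30. The call of Cd68 was lost without normal section 1 (-0.90) or ischemic section 1 (-1.10), and that of Cd14 without normal section 2 (-0.45). For both genes the ratio fell while the level in C1q-high spots of ischemic kidneys was above that of normal kidneys.

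Csf1r, the receptor for the macrophage growth factor CSF-1, was the lineage gene that rose. Its level was 76.0 and 69.0 CPM in C1q-high against 57.6 and 45.9 CPM in other spots of normal sections, and 28.7 and 31.2 against 13.4 and 12.1 CPM in ischemic sections. The enrichment went from 0.49 to 1.23 (change 0.74 ± 0.24, edgeR adjusted p = 0.0395). Both levels were lower in ischemia, and the level outside the C1q-high spots was lower by more. Without ischemic section 2 the change was 0.50 and no longer passed the threshold, nor did it without ischemic section 1 (0.77) or normal section 1 (0.66).

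Other residency genes did not pass the test. Cx3cr1, the fractalkine receptor, had enrichments of 1.49 and 2.36 in the normal and 1.90 and 2.44 in the ischemic sections, and Mrc1, the mannose receptor, had 2.12 and 2.42 (normal) and 1.29 and 1.66 (ischemic). Ms4a7 had 2.07 and 3.04 (normal) and 1.63 and 1.80 (ischemic), and Fcgr1, the high-affinity IgG receptor, 2.45 and 2.04 (normal) and 1.47 and 1.77 (ischemic). Adgre1, which encodes F4/80, had 2.54 and 1.84 (normal) and 1.13 and -0.46 (ischemic), and Aif1 2.80 and 2.55 (normal) and 1.51 and 1.48 (ischemic). Levels of Cx3cr1, Mrc1, Ms4a7 and Fcgr1 in C1q-high spots were between 3 and 23 CPM, where 3 counts in a section equal 2.28 to 2.75 CPM, so changes the size of that of Lyz2 may go undetected at this depth. Stab1, a scavenger receptor of sinusoidal endothelium and tissue macrophages, was measured more deeply, at 61.6 and 69.0 CPM in the normal and 85.3 and 88.0 CPM in the ischemic sections, and its enrichments of 1.60 and 1.41 (normal) and 1.35 and 1.29 (ischemic) gave a change of -0.18 ± 0.19 that did not pass.

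**Figure D3:**
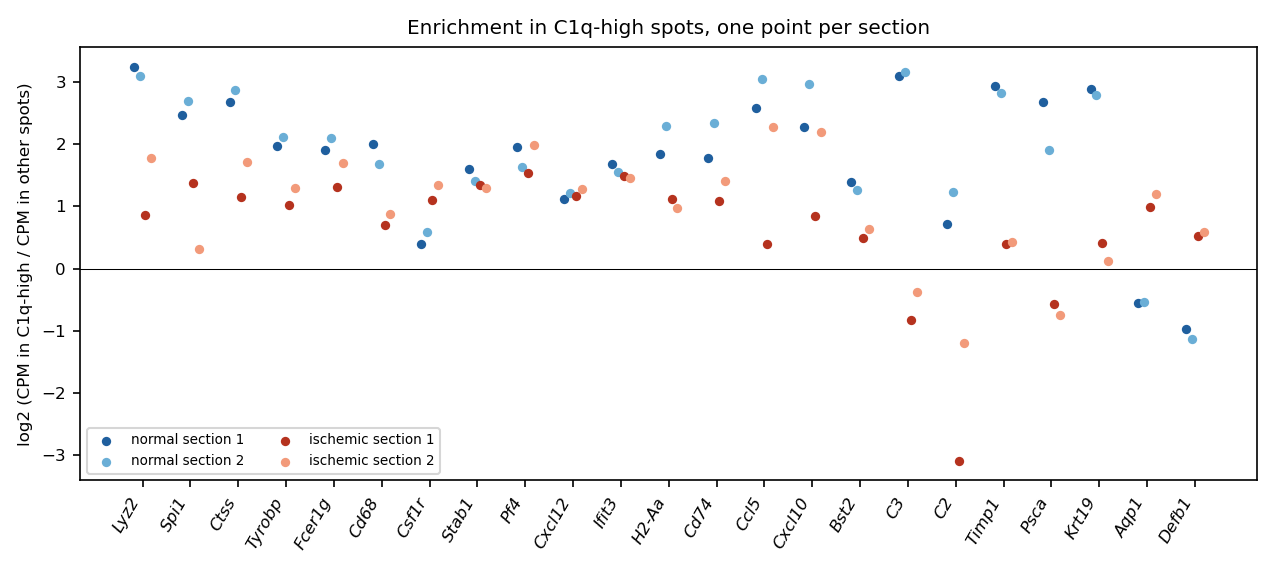
Enrichment of 23 named genes in C1q-high spots, as log2 of CPM in C1q-high over CPM in other spots, 1 point per section (blue normal, red ischemic). Lyz2 and C3 lie lower in both ischemic sections, Stab1, Pf4, Cxcl12 and Ifit3 lie close together in the 4 sections, and Aqp1 and Defb1 change from below to above 0.

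A list of 12 genes was named for receptors of antibody Fc parts and their adaptors. It was not limited to them, since it also held the lipid-sensing receptor Trem2, so its counts are not counts of Fc receptors. The list had 8 falls and no rise, and a median change of -0.99. Tyrobp, the adaptor DAP12 that signals for many myeloid receptors, stood at 235 and 292 CPM in C1q-high spots of normal and 147 and 167 CPM of ischemic sections, over 60.1 and 67.0 (normal) and 72.5 and 68.2 CPM (ischemic) elsewhere. Its enrichment changed by -0.89 ± 0.15 (edgeR adjusted p = 1.73e-06). Fcer1g, the common gamma chain of Fc receptors, kept more of its enrichment, at 1.91 and 2.10 in the normal and 1.31 and 1.71 in the ischemic sections, and its change of -0.50 ± 0.16 passed (edgeR adjusted p = 0.0487). It did not pass without normal section 2 (-0.37) or ischemic section 1 (-0.40), and without ischemic section 2 the change was -0.81.

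The low-affinity IgG receptor Fcgr3 changed by -1.20 ± 0.33, the leukocyte phosphatase Ptprc (CD45) by -1.998 ± 0.45, the actin regulator Coro1a by -1.04 ± 0.22 and Lst1 by -1.10 ± 0.32. Trem2, a lipid-sensing receptor that signals through DAP12, had the highest enrichment of the list in both conditions, 4.16 in the normal and 2.33 in the ischemic sections, from 30 and 23 (normal) and 8 and 15 counts (ischemic) in C1q-high spots, and changed by -1.83 ± 0.53. All of these lost the call when 1 of the 4 sections was left out, except Tyrobp. The calls lost were those of Fcgr3 without normal section 2 (-1.07) and without ischemic section 2 (-1.16), Trem2 without normal section 1 (-1.13) and without ischemic section 1 (-1.62), Ptprc without ischemic section 1 (-1.54), and Lst1 and Coro1a without normal section 2 (-0.78 and -0.69) and without ischemic section 1 (-1.003 and -0.79).

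Antigen presentation genes of MHC class II fell in level everywhere, and by more in C1q-high spots. Their summed level was 3292 and 5045 CPM in C1q-high spots of normal and 258 and 283 CPM of ischemic sections, and 907 and 962 (normal) and 134 and 129 CPM (ischemic) in the other spots. Of 10 genes, 7 fell in enrichment and none rose (median change -1.46). H2-Aa, an alpha chain of the MHC class II dimer, stood at 396 and 619 CPM in C1q-high spots of normal and 27.0 and 26.6 CPM of ischemic sections and changed by -1.02 ± 0.21 (edgeR adjusted p = 2.43e-04). Cd74, the invariant chain that guides the dimer through the cell, stood at 1420 and 2103 (normal) and 106 and 131 CPM (ischemic) and changed by -0.81 ± 0.16, a call that was lost without ischemic section 1 (-0.75), and without normal section 2 the change was -0.49.

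H2-Eb1 changed by -1.57 ± 0.22, H2-Ab1 by -1.35 ± 0.19 and H2-DMb1, a chain of the peptide editor H2-DM, by -2.37 ± 0.35. Ctss, the protease cathepsin S that trims the invariant chain, had 93.5 and 128 CPM in C1q-high spots of normal and 43.1 and 55.0 CPM of ischemic sections over 14.4 and 17.4 (normal) and 19.3 and 16.6 CPM (ischemic) elsewhere, and changed by -1.35 ± 0.20 (edgeR adjusted p = 1.40e-07). The list of dendritic cell genes, which share these products, had 10 genes tested, none called by edgeR or DESeq2 and 2 at an unadjusted p under 0.05 by edgeR, and summed to 85.1 and 179.8 CPM in C1q-high spots of normal and 59.96 and 72.4 CPM of ischemic sections, with 5 and 2 of its 10 genes at 0 in the latter. The part of dendritic cells in the MHC class II values was not tested, and in summed RNA fewer cells of a type and less RNA per cell cannot be told apart.

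**Figure D4:**
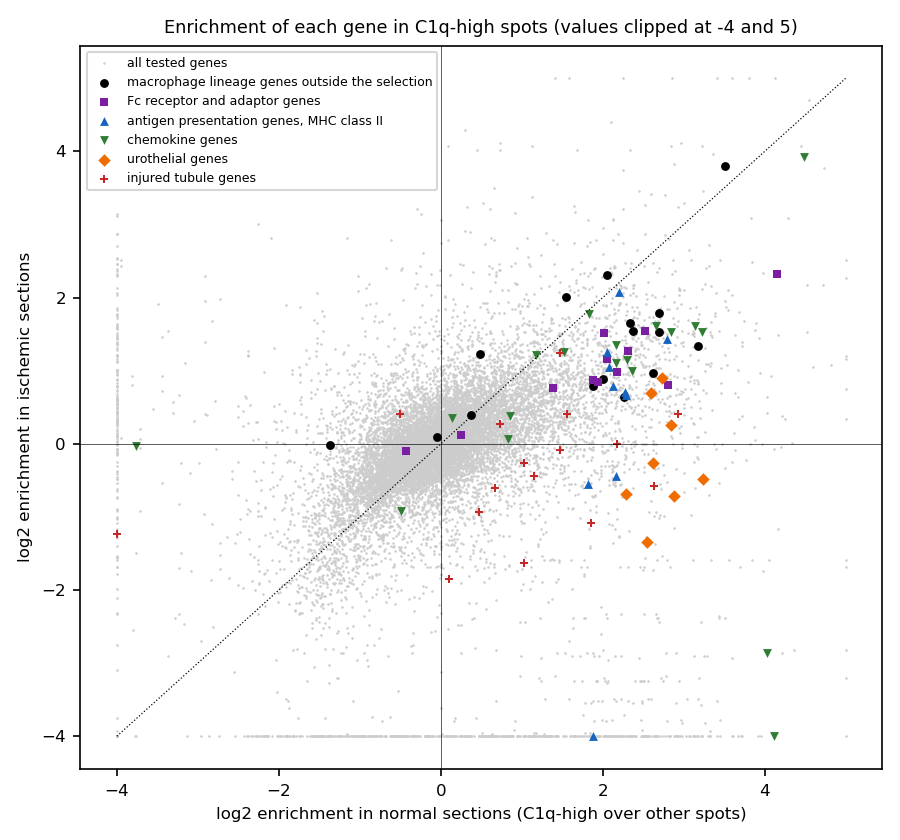
Enrichment of each tested gene in C1q-high spots of normal sections (x) and ischemic sections (y), in log2 units, with 6 gene lists marked, values clipped at -4 and 5, and the dotted line of equal enrichment. Myeloid and MHC class II genes lie mostly to the right of 0 and below the line, and urothelial genes lie between 2.29 and 3.24 on x and below 1 on y.

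Complement genes other than C1q fell in 4 of 13 cases, none rose, and the median change was -0.75. C3, the protein on which all complement pathways meet, stood at 141 and 182 CPM in C1q-high and 16.4 and 20.1 CPM in other spots of normal sections. In ischemic sections it stood at 33.8 and 41.3 CPM in C1q-high and 60.3 and 53.3 CPM in other spots, so that the enrichment of 3.09 and 3.17 turned to -0.83 and -0.37 (change -3.74 ± 0.19, edgeR adjusted p = 1.07e-37). Summed over a section, C3 stood higher in C1q-high than in other spots of both normal sections and lower in both ischemic sections. The zones of the ischemic sections differed. C3 was above the other spots in their cortex (111 and 191 CPM in C1q-high spots of sections 1 and 2, against 93.0 and 82.0) and pelvis (131 and 137 against 38.1 and 49.2), and below or level with them in the inner stripe (11.5 and 18.04 against 25.6 and 18.04) and inner medulla (12.8 and 9.74 against 15.2 and 12.4). In the outer stripe it stood at 20.04 and 72.2 CPM against 41.7 and 45.8.

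C2, the protease of the classical C3 convertase, changed by -2.99 ± 0.42, from 41.8 and 59.1 to 1.69 and 5.50 CPM in C1q-high spots. Serping1, the inhibitor of the C1 complex, changed by -0.76 ± 0.15, and this call was lost without ischemic section 1 (-0.74).

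Of 19 chemokine genes, 5 fell and none rose. Ccl5, which draws T cells and monocytes, had 125 and 226 CPM in C1q-high spots of normal and 11.8 and 37.6 CPM of ischemic sections and changed by -1.31 ± 0.25 (edgeR adjusted p = 4.34e-05). Cxcl10, an interferon-induced chemokine, had 61.6 and 109 (normal) and 38.9 and 88.9 CPM (ischemic) and changed by -1.05 ± 0.22, and Ccl2, the ligand of CCR2, changed by -1.35 ± 0.38. The ischemic sections were far apart for Ccl5 and Cxcl10, and without ischemic section 1 the changes were -0.65 and -0.56, neither past the threshold, while without ischemic section 2 they were -2.56 and -1.91. The call of Ccl2 was lost without ischemic section 1 (-1.28) and without normal section 2 (-0.53), as was that of Cxcl10 without normal section 2 (-0.64).

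Cxcl9, another ligand of the receptor CXCR3, was counted 78 and 166 times in C1q-high spots of normal sections and never in those of ischemic sections, where the other spots held 2 and 1 counts. A count of 0 allows up to 2.53 and 2.75 CPM in ischemic sections 1 and 2, against measured levels of 59.3 and 136 CPM in normal sections. The change of enrichment of Cxcl9 did not pass. With 2 and 1 counts in the other spots, its count of 0 shows a low level in ischemic sections but does not show a lost enrichment. Ccl8, made by resident macrophages, stood at 88.2 and 173 CPM in normal and 5.07 and 5.50 CPM in ischemic C1q-high spots, yet its enrichments of 4.41 and 4.49 (normal) and 3.65 and 3.35 (ischemic) differed by -0.56 ± 0.62 and did not pass. Pf4 (platelet factor 4) had enrichments of 1.96 and 1.63 in the normal and 1.54 and 1.99 in the ischemic sections, and Cxcl12, a stromal chemokine that retains leukocytes, 1.12 and 1.22 (normal) and 1.16 and 1.27 (ischemic). The changes of -0.05 ± 0.27 for Pf4 and 0.05 ± 0.15 for Cxcl12 did not pass, with ranges of the sections that overlapped.

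Interferon-stimulated genes fell in 5 of 12 cases and rose in 1. Bst2 (tetherin, a restriction factor) stood at 181 and 210.3 CPM in C1q-high spots of normal and 116 and 122 CPM of ischemic sections, with enrichments of 1.40 and 1.26 (normal) and 0.50 and 0.63 (ischemic), a change of -0.76 ± 0.15 (edgeR adjusted p = 1.30e-04). Rsad2 (viperin) rose by 1.000 ± 0.30, a call lost without ischemic section 2 (0.41) and without normal section 2 (0.87). Ifit3 went the way of neither, with 1.68 and 1.55 in the normal and 1.49 and 1.45 in the ischemic sections and a change of -0.14 ± 0.20 that did not pass.

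Genes of monocytes recently come from the blood fell in 4 of 16 cases, with no rise. Their summed level rose with ischemia in both kinds of spot, from 297 and 391 to 519 and 487 CPM in C1q-high spots and from 110.3 and 125 to 311 and 308 CPM elsewhere. S100a4, a calcium-binding protein of motile cells, stood at 67.7 and 127 CPM in C1q-high spots of normal and 35.5 and 25.7 CPM of ischemic sections and changed by -1.96 ± 0.23. Ccr2, the receptor with which monocytes leave the marrow, had 17 and 28 counts in C1q-high spots of normal and 4 and 12 of ischemic sections and changed by -1.72 ± 0.52, which did not pass without ischemic section 1 (-1.16) or normal section 2 (-1.56) and was -2.89 without ischemic section 2. Neutrophil genes rose in summed level from 169 and 156 to 6035 and 6050 CPM in C1q-high spots and from 137 and 142 to 3311 and 3866 CPM elsewhere, of which Lcn2, which injured tubules also make, was 5700 and 5724 CPM in the C1q-high spots of ischemic sections. Their part in the Lyz2 values was not tested.

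Lipid-handling genes of macrophages fell in 6 of 12 cases. Apoe, the carrier of cholesterol, stood at 921 and 899.5 CPM in C1q-high spots of normal and 129 and 150.3 CPM of ischemic sections and changed by -0.97 ± 0.15. Lgals3 (galectin-3) stood at 181 and 191 (normal) and 232 and 232 CPM (ischemic) in C1q-high spots, but at 56.1 and 68.6 (normal) and 361 and 356 CPM (ischemic) in the others, and changed by -2.21 ± 0.15 (edgeR adjusted p = 5.57e-26). Spp1 (osteopontin) rose to 45681 and 48361 CPM in C1q-high and 36544 and 37947 CPM in other spots of ischemic sections, from 1516 and 2666 CPM and 976 and 1306 CPM respectively, and its change of -0.50 ± 0.15 was lost without ischemic section 1 (-0.58) and without ischemic section 2 (-0.62), and was -0.27 without normal section 2. For Lgals3 and Spp1, which injured tubules make as well, the level in C1q-high spots did not fall, and the level elsewhere rose.

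Most lysosome genes did not pass the test. Of 16, 2 rose and 2 fell, with library sizes only 1 rose and 5 fell, and their median enrichment was -0.16 in the normal and -0.26 in the ischemic sections. Ctsl (cathepsin L) went from 370.3 and 341 to 1038 and 1101 CPM in C1q-high spots and rose by 0.72 ± 0.14, and Lamp2, a lysosomal membrane protein, rose by 0.55 ± 0.15. Neither passed without ischemic section 1 (0.66 and 0.40) or ischemic section 2 (0.57 and 0.50).

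Genes of other cells in the same spots were read by the same test. Urothelial genes, all 8 of which fell, summed to 1651 and 2643 CPM in C1q-high spots of normal and 80.2 and 106 CPM of ischemic sections, and to 244 and 543 (normal) and 69.9 and 115 CPM (ischemic) elsewhere. Psca, a surface protein of urothelium, went from 727 and 969 to 13.5 and 22.0 CPM in C1q-high spots and changed by -2.97 ± 0.23, Krt19, a keratin of ducts and urothelium, by -2.58 ± 0.18, and Upk1a by -2.89 ± 0.52. The zone in which these genes are found held more of the C1q-high spots of normal sections, as given above.

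Fibroblast and matrix genes fell in 7 of 12 cases, and summed to 2778 and 3296 CPM in C1q-high spots of normal and 2609 and 2661 CPM of ischemic sections. Postn (periostin) changed by -2.58 ± 0.30, Col1a1, the main chain of fibrillar collagen, by -0.98 ± 0.18 and Dcn (decorin) by -0.70 ± 0.18, the latter not without ischemic section 1 (-0.67). Acta2, the actin of smooth muscle, changed by -0.93 ± 0.15, and by -0.60 without normal section 1. Of 12 endothelial genes 2 rose and none fell, and with library sizes only none rose, with Emcn (endomucin) at 0.61 ± 0.16, a call lost without normal section 2 (0.45), ischemic section 1 (0.42) or ischemic section 2 (0.59).

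T and NK cell genes summed to 112 and 257 CPM in C1q-high spots of normal sections over 29.7 and 40.3 CPM in their other spots. In ischemic sections they summed to 6.76 and 6.41 CPM in C1q-high spots and 6.79 and 6.72 CPM elsewhere, and 7 and 8 of the 12 genes were at 0 in C1q-high spots, Cd3e, a chain of the T cell receptor complex, among them. Only Lck, a kinase of T cells, passed the test, on 6 and 18 (normal) and 1 and 1 counts (ischemic), and it did not pass without normal section 2 (-2.72), ischemic section 1 (-3.14) or ischemic section 2 (-3.21). B and plasma cell genes had 3 rises of 9, those of Igkc, Jchain and Ighd, the last 2 named after their values were seen. Igkc, the antibody kappa chain, stood at 60.8 and 0.917 CPM in C1q-high spots of ischemic sections 1 and 2, so its change of 2.85 ± 0.34 became -1.20 without ischemic section 1, and that of Igha, the IgA heavy chain, went from 2.27 to -7.74, where its count in C1q-high spots is 0 and the value is no bound. Jchain, which joins IgA and IgM units, had 33 and 32 counts in C1q-high spots of normal and 12 and 0 of ischemic sections, and its change of 2.30 ± 0.73 became -6.04 without ischemic section 1, again on a count of 0, and did not pass without normal section 2 (1.85). Ighd, the IgD heavy chain, had only 0 and 1 (normal) and 2 and 0 counts (ischemic), and its call was lost without normal section 1 or either ischemic section. Its fitted change, listed further below, is not read as a fold. Whether the fall of the myeloid genes follows that of urothelial, fibroblast or T cell genes was not tested.

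Markers of injured tubules fell in 10 of 16 cases and rose in 1. Their summed level rose from 1462 and 1645 to 11333 and 11650 CPM in the other spots and from 3079 and 3885 to 9143 and 10007 CPM in C1q-high spots. Timp1, an inhibitor of matrix proteases, went from 16.0 and 30.4 CPM in C1q-high and 1.96 and 4.17 CPM in other spots of normal sections to 417 and 443 CPM in C1q-high and 318 and 329 CPM in other spots of ischemic sections, a change of -2.51 ± 0.26 (edgeR adjusted p = 3.67e-14). Sprr1a, a cornified envelope protein, changed by -3.21 ± 0.14, Krt18 by -2.19 ± 0.15 and the small heat shock protein Cryab by -1.41 ± 0.14. Summed over the list, C1q-high spots stood above the others in both normal sections and below them in both ischemic sections, while Timp1 stayed above. The immediate early gene Junb changed by -1.24 ± 0.17.

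The 10 largest rises past the threshold, taken among genes whose sections did not overlap and that reached 20 CPM in C1q-high spots of at least 1 condition, were led by Fam107a (2.19 ± 0.40) and Myo5a (1.65 ± 0.33). Aqp1, the water channel of proximal tubule, thin descending limb and vasa recta, was the most precise, at 525 and 429 CPM in C1q-high and 773 and 619 CPM in other spots of normal sections, and 245 and 381 CPM in C1q-high and 124 and 166 CPM in other spots of ischemic sections. Its change was 1.64 ± 0.14 (edgeR adjusted p = 1.96e-18), with the C1q-high spots below the others in both normal sections and above them in both ischemic sections. Defb1, a beta-defensin of the distal nephron, changed from -0.97 and -1.13 to 0.53 and 0.59 (1.61 ± 0.14), and Frzb, a secreted Wnt inhibitor, by 1.62 ± 0.23. Sema3g (1.58 ± 0.37), Irx2 (1.55 ± 0.30), Rint1 (1.48 ± 0.35), Atxn1 (1.46 ± 0.38) and Olfm4 (1.40 ± 0.45) completed the list. Each of these last 5, and Fam107a, lost the call without at least 1 section, with Fam107a at 1.66 and Sema3g at 1.45 without ischemic section 2, Irx2 at 1.07 and Rint1 at 1.19 without ischemic section 1, Rint1 at 1.17 without normal section 2, and Atxn1 at 0.99 without normal section 1, 1.08 without ischemic section 2 and 2.21, still past the threshold, without normal section 2. Olfm4 had 0.90 without normal section 1, 1.53 without ischemic section 1 and 1.002 without ischemic section 2.

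The 10 largest falls held C3 and genes of epithelium, fat and cytoskeleton. Slpi, a secreted protease inhibitor, had 13.7 and 0.821 CPM in C1q-high spots of normal and 25.3 and 42.2 CPM of ischemic sections, over 0.449 and 0.516 CPM (normal) and 118 and 106 CPM (ischemic) in the other spots, and its enrichment changed by -5.72 ± 0.59. The value rests on normal section 1, and without it the change was -2.39 and did not pass. Ccl17, a chemokine for CCR4, had 25 and 144 counts in C1q-high spots of normal and 0 and 2 of ischemic sections (-4.32 ± 0.82), with -3.13 without ischemic section 1 and -11.28 without ischemic section 2, where the ischemic count is 0 and the value is no bound. Flnc (filamin C) changed by -4.02 ± 0.49. Sptssb (-3.94 ± 0.53), Upk2 (-3.89 ± 0.97), Krt5 (-3.72 ± 0.55) and Krt15 (-3.60 ± 0.47) belong to urothelium or other lining epithelium, and Upk2 did not pass without ischemic section 2 (-8.72). Cidec, of fat droplets (-5.03 ± 0.89), did not pass without normal section 1 (-2.78), and without ischemic section 1 its value was -10.63, where its ischemic count is 0 and the value is no bound. Ly6k was counted 27 and 30 times in C1q-high spots of normal and never in those of ischemic sections, where up to 2.53 and 2.75 CPM would go unseen. The other spots of ischemic sections held 13 and 12 counts, so the fitted change of Ly6k, listed further below, is not read as a fold. Its call was lost without normal section 1 or either ischemic section.

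The genes highest in C1q-high spots by condition were, in normal sections, Ccl8, Cxcl9, Lyz2, Ly6d (3.16), C3, C1qa, Rbp4 (3.01), Ccl21a (2.92), Igha (2.85) and Fxyd3 (2.85). In ischemic sections they were C1qc, C1qa, C1qb, Slc14a2 (1.74), Fcer1g (1.51), Ifitm1 (1.504), Cck (1.48), Ifit3 (1.48), Lyz2 (1.34) and Stab1 (1.32). The values in parentheses are log2 enrichments. Only genes of at least 50 CPM in the C1q-high spots of each section of the condition could enter these lists. The C1q genes are in these lists by the selection. The urea transporter gene Slc14a2, of the inner medulla, was the highest of the others in ischemic sections. Its change of -0.83 ± 0.17 did not pass without normal section 1 (-0.32) and was -1.48 without normal section 2. Ly6d (-3.34 ± 0.28), Rbp4 (-2.61 ± 0.40), Ccl21a (-1.46 ± 0.25) and Fxyd3 (-2.61 ± 0.28) fell, and Ifitm1 (-0.13 ± 0.17) and Cck (0.04 ± 0.19) did not pass.

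Since the C1q-high spots lay in different places in the 2 conditions, they were also compared with the spots that touch them. There were 380 and 391 such neighbours in the normal and 487 and 515 in the ischemic sections. Of 12314 genes, 134 (1.09%) then rose and 142 (1.15%) fell with ischemia, and 224 of the 276 calls were among the 923 calls made against all other spots, in the same direction. Against neighbours, Lyz2 still changed by -1.33 ± 0.14, Tyrobp by -0.66 ± 0.14, Spi1 by -1.48 ± 0.38, Ctss by -0.85 ± 0.23, Bst2 by -0.57 ± 0.15, C3 by -2.27 ± 0.21 and Timp1 by -1.66 ± 0.28, each past the threshold. The 10 largest rises were each smaller against neighbours, with 1.06 for Aqp1 and 0.79 for Defb1. Defb1 then stayed below 0 in ischemic sections 1 and 2 (-0.07 and -0.11).

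Fewer genes of the MHC class II and Fc receptor lists passed against neighbours. The median change of the MHC class II list was -0.64, with 2 of 10 genes past the threshold, H2-DMb1 (-1.43 ± 0.40) and Ctss, and that of the Fc receptor list was -0.71, with 4 of 12. H2-Aa had enrichments of 1.45 and 1.51 in the normal and 1.67 and 1.18 in the ischemic sections. Its change was -0.0063, too near 0 for a usable SE. Cd74 had 1.23 and 1.73 (normal) and 1.29 and 1.39 (ischemic), a change of -0.13 ± 0.15. Neither passed. Of the other genes, Cd14 changed by -0.37 ± 0.32, Fcer1g by -0.34 ± 0.18, Trem2 by -0.09 ± 0.67, Apoe by -0.42 ± 0.14 and Acta2 by -0.06 ± 0.12, and none of these passed either. For H2-Aa, Cd74 and Trem2 no difference against neighbours was detected at this depth.

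**Figure D5:**
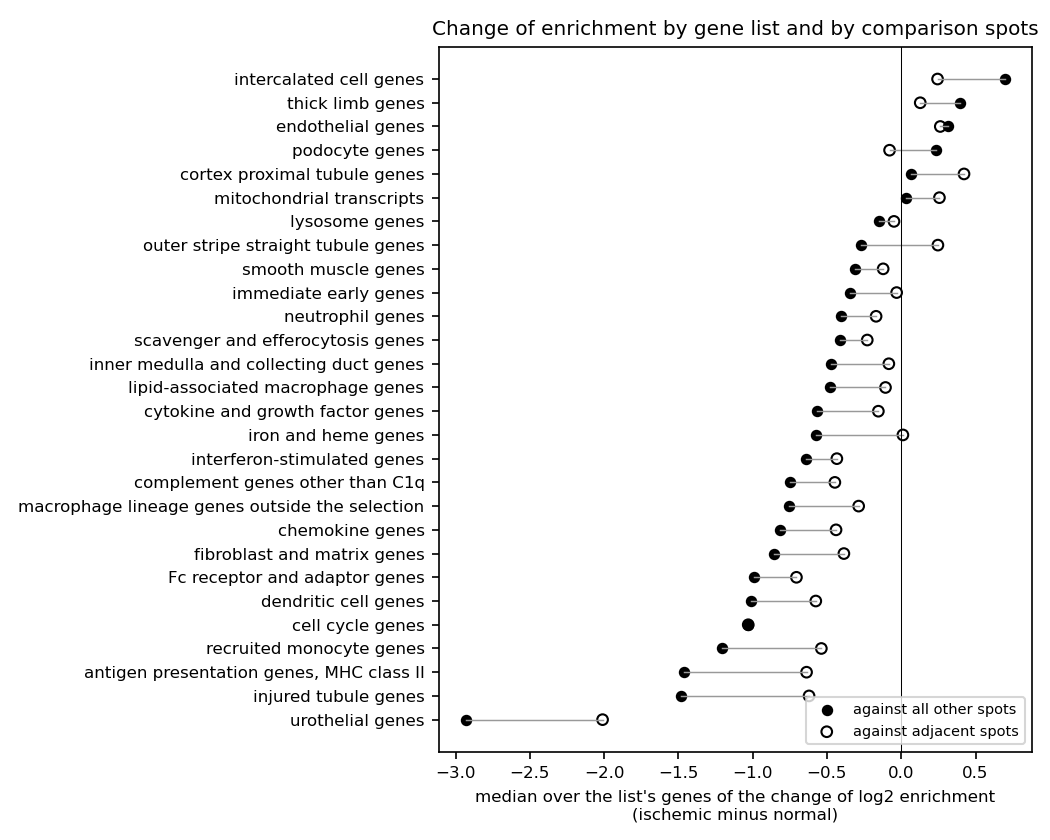
Median change of log2 enrichment (ischemic minus normal) over the genes of each list, for C1q-high spots against all other spots (filled) and against adjacent spots (open); lists with at least 7 genes tested in both are shown, without T and NK cell and adipocyte genes, many of which had counts of 0. The MHC class II list lies at -1.46 against all other spots and -0.64 against adjacent spots, and the urothelial list at -2.93 and -2.01.

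Comparing within zones gave fewer calls, and its test took each zone of a section as a block of its own. Zones of 1 section were thus counted as if independent, so a call within zones does not measure the spread between sections. When C1q-high and other spots were summed zone by zone in each section, with section and zone as a block and zones of under 10 C1q-high spots left out, an alternative chosen after seeing the data, 4 of 9205 genes (0.0435%) rose and 37 (0.402%) fell. Lyz2 changed by -1.31 ± 0.29, Tyrobp by -0.76 ± 0.18, C3 by -2.55 ± 0.38, Timp1 by -2.58 ± 0.34 and Ccl5 by -1.92 ± 0.34, all past the threshold, and H2-Aa by -0.05 ± 0.29 and Cd74 by -0.16 ± 0.23, not past it. Each of the 10 largest rises was smaller within zones, with 0.84 for Aqp1, 0.21 for Defb1 and -0.13 for Olfm4. In the inner medulla, where spots of both conditions were found in number, Lyz2 stood at 774 and 748 CPM in the C1q-high spots of normal and 112 and 166 CPM of ischemic sections, and at 105 and 139 (normal) and 97.3 and 71.2 CPM (ischemic) in the other spots. In the inner stripe it stood at 693 and 382 (normal) and 120.4 and 268 CPM (ischemic) in C1q-high spots over 47.3 and 75.1 (normal) and 77.6 and 88.8 CPM (ischemic) elsewhere. In the inner medulla and inner stripe the C1q-high spots of both ischemic sections held less Lyz2 than those of both normal sections. The other zones did not all go this way. In the outer stripe Lyz2 stood at 224 and 348 CPM in C1q-high spots (normal) and 491 and 425 CPM (ischemic, 8 and 16 spots), higher in both ischemic sections, and in the cortex at 144 and 531 (normal) and 34.8 and 331 CPM (ischemic), with sections that overlapped. In the pelvis it stood at 366 and 657 (normal) and 365 and 249.8 CPM (ischemic).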

How the data were processed

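The 4 Visium sections (2 normal, 2 ischemic) were deposited as raw UMI counts per gene and spot. Per the file headers and the labels, the authors made these counts with Space Ranger 1.3.0 on mm10, and the columns of no other samples were present. The total was 25957128 to 44528078 counts per section. Spots over tissue with at least 2000 UMIs were kept, and in each section the 5% with the highest C1qa, C1qb and C1qc share were taken. A spot can hold several cells, so no doublet caller was run, and spots were not used as replicates. Zones were given from marker sums over a spot and its neighbours, at most 6, and pelvis needed at least 10 counts of its list and a place in the top 5%. Counts were summed per section over C1q-high and over other spots (8 sums) and fitted with edgeR 4.0.16 (R 4.3.3; TMM, quasi-likelihood test, section as a block, 2 sections per condition, Benjamini-Hochberg over 15475 genes, threshold 0.05). The enrichment within a condition uses the contrast that chose the spots and was not tested, and the 3 C1q genes were left out of every test. The SE after each edgeR change was worked back from the change and its p-value, so it is unreliable where the change is near 0. For every gene the SE is drawn in part from other genes, so it can be small beside the gap between sections. DESeq2 1.42.0 was an alternative, as were other scalings, filters, member limits and comparison spots, and those without pelvis spots and within zones were added after seeing the data. Tables and plots used Python 3.11.15, pandas 2.3.3, numpy 2.4.6, scipy 1.17.1 and matplotlib 3.10.9. On simulated counts for this comparison (14758 genes), 59 of 100 genes changed 2-fold and 96 of 100 changed 4-fold were called, with 14 false calls. The simulation gave every gene the same spread. Its false calls therefore do not carry over to real genes whose sections lie far apart.

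The C1q-high spots and the 34 gene lists (369 genes) were chosen with earlier results of these data known. Beside the lists, the text names the 10 largest rises and falls past the threshold whose sections do not overlap and that reach 20 CPM in C1q-high spots of at least 1 condition, and the 10 highest enrichments per condition at 50 CPM or more in both sections. Genes picked out of the lists for their own sentence were picked after their values were seen. Some genes of the lists are not reported here. Counting error alone sets the limit of 3 counts used for a count of 0. Sequences came from RefSeq (GRCm38.p6), where C1qb, C1qc and Lyz2 matched, and positions from GENCODE on the same build. How the counting used strand is not stated, and overlapping genes are therefore uncertain.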

Additional observations from a re-analysis of the deposited data

Results flagged for a closer look

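Each of the 76 genes below was picked out because its enrichment in C1q-high spots differed between ischemic and normal sections by the test of that difference (edgeR, Benjamini-Hochberg adjusted p under 0.05), and the value beside each is the change of log2 enrichment, ischemic minus normal. Groups of 2 sections cannot be checked for an outlying sample. Among genes of macrophages and other leukocytes the changes were Lyz2 (-1.83), Spi1 (-1.65), Cd68 (-1.09), Cd14 (-1.12), Csf1r (0.74), Tyrobp (-0.89), Fcer1g (-0.50), Fcgr3 (-1.20), Trem2 (-1.83), Lst1 (-1.10), Coro1a (-1.04), Ptprc (-1.998), Ctss (-1.35), S100a4 (-1.96), Ccr2 (-1.72), Lck (-3.08), Igkc (2.85), Igha (2.27), Jchain (2.30) and Ighd (7.43). The values of Igkc, Igha and Jchain turned direction without ischemic section 1, and that of Ighd stands on 0 and 1 counts in C1q-high spots of normal and 2 and 0 of ischemic sections and is no bound. Among antigen presentation, complement, chemokine and interferon genes they were H2-Aa (-1.02), H2-Ab1 (-1.35), H2-Eb1 (-1.57), Cd74 (-0.81), H2-DMb1 (-2.37), C2 (-2.99), C3 (-3.74), Serping1 (-0.76), Ccl5 (-1.31), Cxcl10 (-1.05), Ccl2 (-1.35), Ccl17 (-4.32), Ccl21a (-1.46), Bst2 (-0.76) and Rsad2 (1.000).

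Among lipid, lysosome, matrix and injury genes the changes were Apoe (-0.97), Lgals3 (-2.21), Spp1 (-0.50), Ctsl (0.72), Lamp2 (0.55), Timp1 (-2.51), Sprr1a (-3.21), Krt18 (-2.19), Cryab (-1.41), Postn (-2.58), Dcn (-0.70), Col1a1 (-0.98), Acta2 (-0.93), Emcn (0.61) and Junb (-1.24). Among urothelial and other lining epithelial genes they were Psca (-2.97), Upk1a (-2.89), Upk2 (-3.89), Krt19 (-2.58), Krt5 (-3.72), Krt15 (-3.60), Ly6d (-3.34), Ly6k (-8.77), Slpi (-5.72), Fxyd3 (-2.61) and Sptssb (-3.94), where the value of Ly6k stands on counts of 0 in the ischemic sections and is no bound. The remaining changes were Fam107a (2.19), Myo5a (1.65), Aqp1 (1.64), Frzb (1.62), Defb1 (1.61), Sema3g (1.58), Irx2 (1.55), Rint1 (1.48), Atxn1 (1.46), Olfm4 (1.40), Cidec (-5.03), Flnc (-4.02), Slc14a2 (-0.83), Rbp4 (-2.61) and Calb1 (1.37).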

How the results depend on the processing

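Counts of changed genes moved with the processing, and the cause was not tested except where a setting leaves out spots, genes or sections. Against 301 rises and 646 falls, the values were 57 and 258 with DESeq2, 94 and 1040 with library sizes only, 11 and 115 without the section block, 61 and 197 with the share taken after thinning to 2000 UMIs, 134 and 142 against adjacent spots, 170 and 380 without pelvis spots, 4 and 37 within zones. The rises were 130 when at least 10 counts were expected in each sum and 131 with 2.5% of spots, and leaving out 1 section gave 46 to 449 rises and 389 to 640 falls. Genes 1.5-fold higher in normal sections (2336) became 4264 with library sizes only, 689 with at least 10 expected counts, 810 against adjacent spots and 3528 to 3690 with 1 section, and in ischemic sections (1096) 2136, 312, 253 and 2405 to 2409, with 678 after thinning. The log2 C1q share of C1q-high over other spots was 3.31 in normal sections, and 3.06 with 10% and 3.63 with 2.5% of spots, 3.25 at 5000 UMIs and 2.67 thinned. In ischemic sections it was 2.83, and 2.02 thinned. With spots chosen by C1qa alone the log2 ratio was read on C1qb and C1qc only, and was 2.75 (normal) and 1.68 (ischemic). On these 2 genes the main selection gave plain ratios of 9.33 and 9.46 (normal) and 6.72 and 7.55 (ischemic). C1q-high neighbours made up 26.2% in normal sections, with 28.96% at the 10% limit, 28.2% at 5000 UMIs and 15.9% thinned, and 10.3% in ischemic sections, with 18.6% at 10%, 5.76% at 2.5% and 7.47% thinned. The pelvis share was 27.5% in normal sections, with 20.2% at 10%, 34.7% at 2.5%, 20.01% thinned and 25.1% with the zone from the spot alone, which gave 1.23% in ischemic sections against 7.87%. In each of these settings the normal value stayed above the ischemic one.

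Signs turned for Olfm4 (-0.13), Cryab (0.23) and Ctsl (-0.016) within zones, for Rsad2 (-0.11), Slc14a2 (1.75) and Ighd (-1.54) after thinning, and for Igkc, Igha and Jchain without ischemic section 1 (-1.20, -7.74 and -6.04) and without pelvis spots (-1.98, -2.42 and -5.98). Leaving out 1 section gave -1.20 to 3.54 for Igkc, -7.74 to 2.38 for Igha and -6.04 to 2.81 for Jchain. Of the 76 named genes called, 42 kept the call with DESeq2, 41 against adjacent spots, 45 after thinning, 26 without the section block and 12 of 68 within zones. The same replicate number did not pair the sections (correlation over genes of the differences between sections 1 and 2, 0.0173), and a fit with the replicate block gave 314 rises and 653 falls, kept 73 of the 76 calls, lost Lck (-3.01), Jchain (1.88) and Ighd (7.87), and gained Aif1 (-1.17). The median of 5 to 8 C1q counts per selected spot limits how well the spots are chosen.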

Other observations

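Gene groups not described above were read by the same counts, with the number that rose or fell in enrichment by edgeR's quasi-likelihood test (Benjamini-Hochberg adjusted p under 0.05). Over all 15475 genes 1.95% rose and 4.17% fell, so a single gene called in a list is not read as a result about the list. Scavenger and efferocytosis genes, with which macrophages take up dying cells, had no rise and 1 fall among 10, cytokine and growth factor genes had no rise and 2 falls among 13, and iron and heme genes had no rise and 3 falls among 10. Neutrophil genes had no rise and 3 falls among 10, smooth muscle genes no rise and 2 falls among 8, and immediate early genes no rise and 5 falls among 12. Among tubule genes there were no rise and no fall among 8 cortical proximal tubule genes, 1 rise and 1 fall among 8 straight tubule genes, 1 rise and no fall among 8 thick limb genes, 2 rises and no fall among 6 distal convoluted tubule genes, 1 rise and no fall among 8 intercalated cell genes and no rise and 3 falls among 8 inner medulla and collecting duct genes. Calb1, the calcium buffer of the distal convoluted tubule, was one of those called (1.37 ± 0.36), and did not pass without ischemic section 2 (0.33). Podocyte genes had 1 rise and no fall among 8, cell cycle genes no rise and no fall among 11 and mitochondrial transcripts no rise and no fall among 13. DESeq2 called none of the cortical proximal tubule, cell cycle and mitochondrial genes either, and at an unadjusted p under 0.05 by edgeR there were 0, 2 and 2. Hemoglobin genes moved with the setting: 1 of 5 rose and none fell, none was called with library sizes only, 5 rose against adjacent spots, and 3 fell without pelvis spots. The log2 ratio of their summed CPM in C1q-high over other spots was -0.07 and 0.51 (normal) and -0.02 and 1.21 (ischemic), so that the sections overlapped.

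Adipocyte genes, of which 1 of 7 fell, summed to 2205 and 284 CPM in the C1q-high spots of normal sections 1 and 2 and to 113 and 95.3 CPM in those of ischemic sections, so the normal sections stood apart from each other. Itgam, an integrin of myeloid cells, had 1 and 1 counts in C1q-high spots of normal and 11 and 19 of ischemic sections, and its change of 0.45 ± 1.32 did not pass.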
